A study of Homo sapiens with 4 samples.

Results

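The genes described here encode the factors that start, extend and end protein synthesis on cytosolic ribosomes. They are the initiation factors and their inhibitors of the EIF series, the EEF elongation factors with EIF5A, the release factor ETF1 and the poly(A)-binding protein PABPC1. They were chosen by name, 46 genes in all. Their measured values were not part of the rule, but earlier results of these data were known when the list was made. Of these, 45 were analysed among the 23622 genes of the deposited table. EEF1G was not analysed here. RNA was sequenced from MV4-11, a human acute myeloid leukemia (AML) cell line with monocytic features, in 2 control libraries (sh-NC) and 2 libraries with knockdown of IRF1 (sh-IRF1). All 4 libraries carry the genotype label WT, and the control libraries are labelled NC and without treatment. The columns of the deposited table name the NC libraries sh_NC, and in the study's other assays of these cells sh-NC is the hairpin control. Per the study's methods, hairpins were delivered by lentivirus in the pLKO.1 vector and infected cells were selected with puromycin, so the knockdown cells are a selected population and not a clone.

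Translation begins when eIF2, loaded with initiator tRNA and GTP, joins the small ribosomal subunit together with eIF1, eIF1A, eIF3 and eIF5. The eIF4 proteins bring this complex to the capped end of an mRNA, eIF5B joins the large subunit, and the eEF1 and eEF2 proteins then drive elongation. Cells match the supply of these factors to growth, and MYC and the mTORC1 kinase are known regulators of many of them.

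IRF1, the targeted gene, had normalized counts of 785 and 738 in the sh-NC libraries and of 430 and 432 in the sh-IRF1 libraries. That left 56.6% of the control level. Of its exonic bases, 22.9% are shared with other annotation, so its reads count as uncertain by the rule used here. The study lists 2 hairpins against IRF1, and their target sequences are shown here because they define the knockdown. The first lies in exon 7 of transcript ENST00000245414 (chr5:132486284-132486304, minus strand, GRCh38) and the second in exon 8 (chr5:132485672-132485692), both within coding sequence. Which of them each library carried is not given in the sources used here. Among 742 annotated transcripts of the 46 genes, the closest match to the first target had 5 mismatches (in EIF3M) and the closest match to the second had 6 (in EIF4B).
sh-IRF1#1: gcaccagtgatctgtacaact
sh-IRF1#2: ggaaattacctgaggacatca

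A normalized count here is the number of reads of a gene divided by 1 size factor per library. Depth ran from 17635908 to 18695337 reads per library, and mitochondrial genes took 3.92% to 4.51% of them. The genes taken to mark MV4-11 or myeloid cells were FLT3, CD33, CSF1R, LYZ, MPO, HOXA9, MEIS1, SPI1 and PTPRC. All 9 passed the filter on low values. At an adjusted p under 0.05 from limma, 4 were lower and 2 higher in sh-IRF1. These shares, 44.4% and 22.2%, stand beside 21.9% and 20.3% of all genes tested. MPO was at 37.3%, PTPRC at 71.6%, FLT3 at 72.9% and LYZ at 179.9% of the control level. MPO and LYZ thus moved further than any of the 45 translation factors, though 34.7% of the exonic bases of LYZ are shared. Of the markers of other cell types, the fibroblast genes COL1A1 and PDGFRA had mean normalized counts of at most 3.08 and the B cell gene CD79A rose from a mean of 46.7 to 220.1. CD3D, CD3E, CD2, MS4A1, HBB, AHSP and COL1A2 were not analysed here. The part of these marker changes in the results below was not tested.

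Most translation factor genes had lower transcript levels after IRF1 knockdown, by modest amounts. Of the 45 genes, 29 fell, 3 rose and 13 did not pass the test, at an adjusted p under 0.05 from limma. Among all 14120 genes tested, 21.9% were lower and 20.3% were higher by the same rule, so the share of lowered factors (64.4%) was above that background and the share of raised ones (6.67%) below it. Genes with many reads pass the test more often. Among the 4227 genes with a mean normalized count of at least 1000, 38.6% were lower, against 73.7% of the 38 translation factors at that level. The median log2 fold change of the 45 genes was -0.18, against -0.0019 over all genes tested, and single genes ranged from -0.58 (EIF5) to 0.33 (EIF4EBP2). Only EIF5 and EIF2S2 fell beyond a log2 fold change of -0.5 with an adjusted p under 0.05, a rule met by 7.56% of all genes, and 0 rose beyond 0.5, which 8.27% of all genes did. By the rule on shared bases and pseudogene reads, 30 of the 45 genes were not called uncertain, and of these 21 fell and 2 rose.

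In 36 of the 45 genes both sh-IRF1 libraries lay below both sh-NC libraries, in 5 genes both lay above, and in 4 genes the groups overlapped. The same order is met by 35.0% of all genes tested for lower and by 34.2% for higher values. The smallest two-sided p of an exact permutation test of a single gene is 0.33 with 2 libraries a group, and the calls therefore depend on limma's estimate of the spread, which borrows from all genes. The labels do not say that the libraries came from separate cultures, so the p-values measure the spread between these libraries, which may be technical. In bulk RNA, fewer cells with a transcript and fewer transcripts per cell cannot be told apart.

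**Figure D1:**
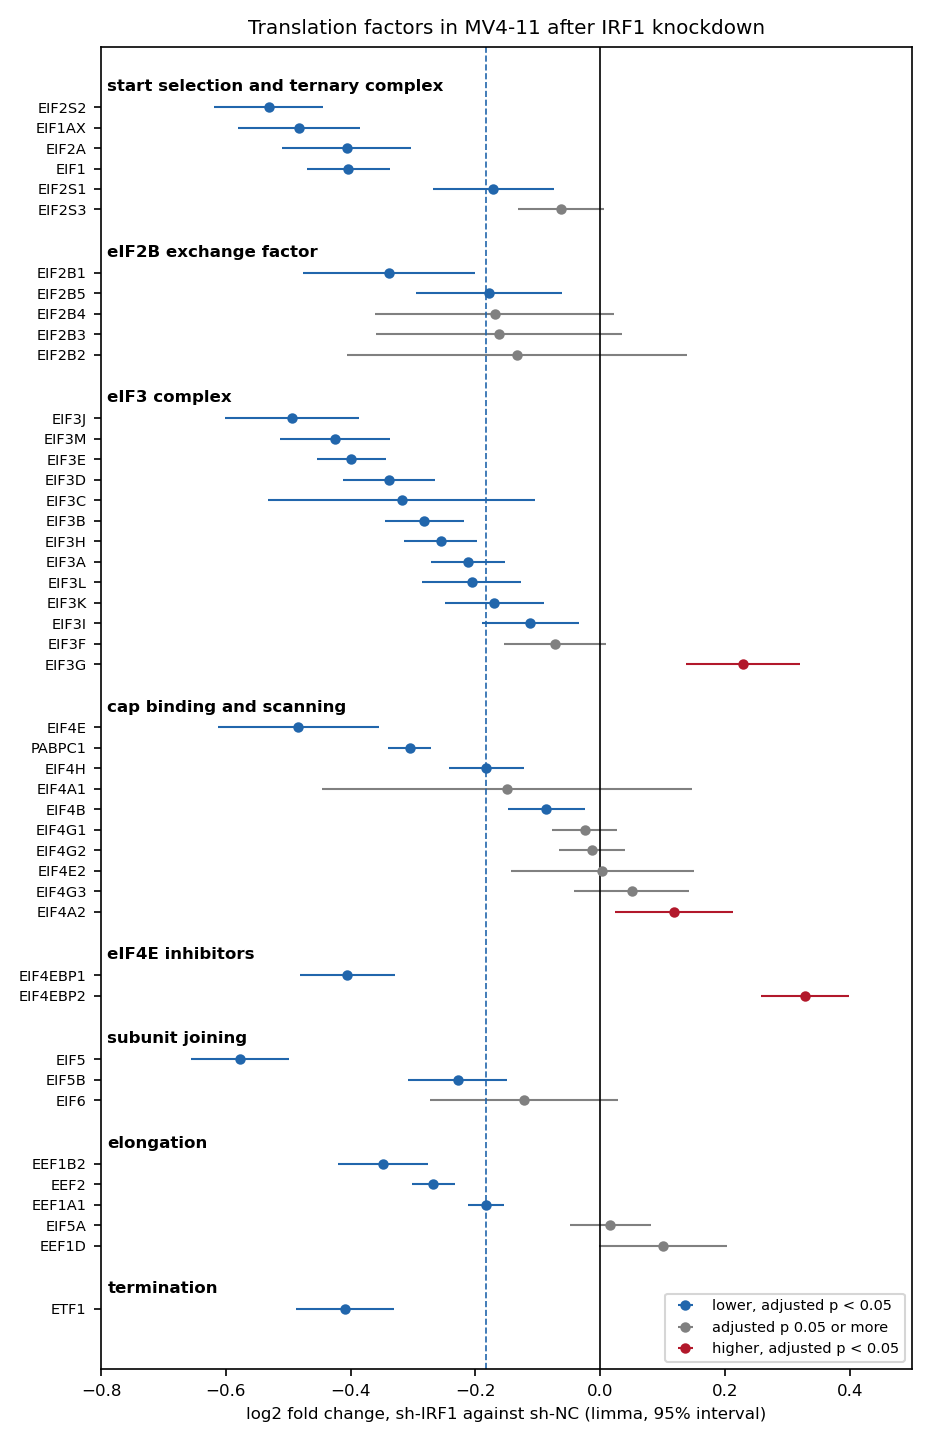
Log2 fold change (horizontal axis, sh-IRF1 against sh-NC, from limma) of the 45 translation factor genes, grouped by role, with 95% intervals as bars; blue marks genes lower and red genes higher at an adjusted p under 0.05, grey the others. The dashed line is the median of -0.18, and EIF3G, EIF4A2 and EIF4EBP2 are the 3 genes called higher.

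Summed over the 45 genes, translation factors took 3.80% and 3.82% of all reads in the sh-NC libraries and 3.38% and 3.36% in the sh-IRF1 libraries. The mean share thus went from 3.81% ± 0.0141 to 3.37% ± 0.0181 (SD over 2 libraries here and below), a difference of -0.44 percentage points. EEF1A1, EEF2 and PABPC1 alone made up 2.58% ± 0.0241 and 2.25% ± 0.0148 of all reads. These 3 genes therefore set most of the sum, and without EEF1A1 the difference was -0.332 percentage points. The 13 eIF3 genes together took 0.458% ± 0.00437 in sh-NC and 0.396% ± 0.00246 in sh-IRF1, or 86.4% of the control share.

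**Figure D2:**
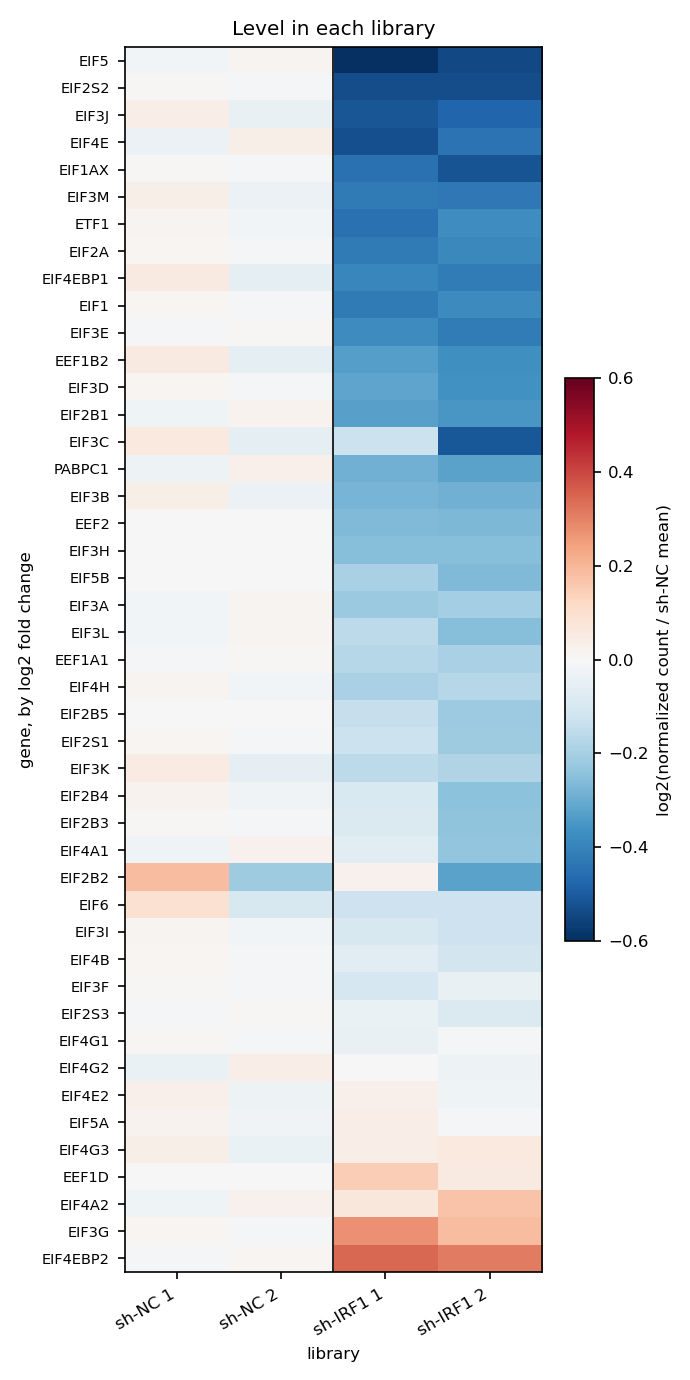
Level of each of the 45 genes (rows, ordered by fold change) in each of the 4 libraries (columns), as log2 of the normalized count over the sh-NC mean of that gene; blue is below and red above that mean. The upper rows, from EIF5 at -0.58, are blue in both sh-IRF1 libraries, and the lowest row, EIF4EBP2 at 0.33, is red in both.

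The genes of start codon selection and of the eIF2 complex fell as a group in number but not in step. Of 6 genes, 5 fell, with a median log2 fold change of -0.41. The share of 83.3% lower rests on few genes. Beside it stand 21.9% lower of all genes tested and 38.6% of those with a mean normalized count of at least 1000. EIF2S2, which encodes the beta subunit of eIF2 and lies on chromosome 20 from 34088309 to 34112243 (GENCODE 44, GRCh38, the build the labels name), had normalized counts of 3569 and 3541 in sh-NC and of 2458 and 2460 in sh-IRF1. Both knockdown libraries were well below both controls, and limma gave a log2 fold change of -0.53 with a standard error of 0.0435 (adjusted p = 2.48e-14). EIF2S1, for the alpha subunit whose phosphorylation lowers translation under stress, had 2585 and 2536 against 2345 and 2206, a smaller change of -0.17 (adjusted p = 0.00315), and without sh-IRF1 replicate 2 it was -0.13 with an adjusted p of 0.11. EIF2S3, for the gamma subunit that binds GTP and the initiator tRNA, had 6349 and 6396 against 6202 and 5999. Its log2 fold change of -0.063 did not pass the test (95% interval -0.13 to 0.0063). Within each library the ratio of EIF2S2 to EIF2S3 was 0.562 and 0.554 in sh-NC and 0.396 and 0.410 in sh-IRF1, so the transcripts of these 2 subunits did not change in proportion.

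EIF1, which guards the choice of the start codon, went from 8273 and 8117 to 6103 and 6288 normalized counts, a log2 fold change of -0.40. EIF1AX, for eIF1A, its partner on the small subunit, had a log2 fold change of -0.48, and its 1 named pseudogene held 10.8% as many reads as the gene itself. EIF2A, a separate protein that can also deliver initiator tRNA, had one of -0.41 (adjusted p from 1.52e-11 to 2.69e-14 for the first pair and 6.32e-09 for EIF2A). All 3 genes were lower in both knockdown libraries, though the reads of EIF1AX could not be assigned with certainty.

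The 5 subunits of eIF2B, the exchange factor that reloads eIF2 with GTP, all had negative log2 fold changes, from -0.34 to -0.13. Of the 5, 2 passed the test, and this share of 40.0% rests on few genes. It stands beside 21.9% lower of all genes tested and 38.6% of those with a mean normalized count of at least 1000. EIF2B1, for the alpha subunit, had 1133.5 and 1171 normalized counts in sh-NC and 918 and 903 in sh-IRF1 (log2 fold change -0.34, adjusted p = 5.77e-05), and 15.6% of its exonic bases overlap DDX55. EIF2B5, for the catalytic epsilon subunit, had a value of -0.18 (adjusted p = 0.011), and without sh-IRF1 replicate 2 the adjusted p was 0.153 at -0.14. EIF2B3 and EIF2B4, at -0.16 and -0.17, did not pass, with 95% intervals from -0.36 to 0.035 and from -0.36 to 0.023. EIF2B2 had 358 and 272 normalized counts in sh-NC and 321 and 252 in sh-IRF1, so its groups overlapped and its replicates differed more than its groups. Per length these genes stood between 4.04 (EIF2B2) and 34.1 (EIF2B5) RPKM in sh-NC, which scales reads by the length of the canonical transcript and by library depth.

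**Figure D3:**
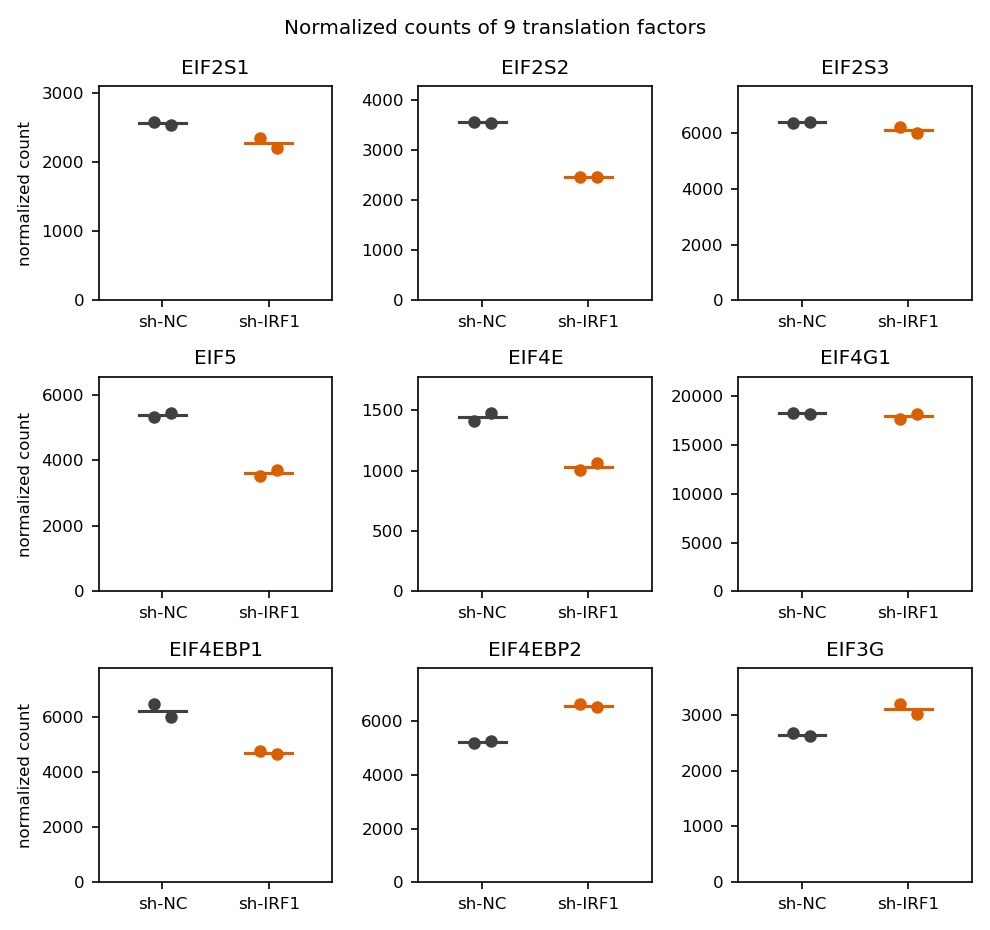
Normalized counts (vertical axes, from 0) of 9 translation factor genes in the 2 sh-NC and 2 sh-IRF1 libraries; points are libraries and lines are group means. EIF2S2, EIF5, EIF4E and EIF4EBP1 are lower in both sh-IRF1 libraries, EIF4EBP2 and EIF3G are higher in both, and EIF4G1 and EIF2S3 are at 98.3% and 95.7% of their control levels.

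Among the 13 subunits of eIF3, the scaffold that holds the small subunit and the mRNA together, 11 fell and 1 rose, with a median log2 fold change of -0.26. These shares, 84.6% and 7.69%, stand beside 21.9% and 20.3% of all genes tested. EIF3E had the smallest p of the group, with 16555 and 16758 normalized counts in sh-NC and 12804 and 12461 in sh-IRF1 (log2 fold change -0.40, standard error 0.0273, adjusted p = 6.10e-17 from limma). EIF3J, a loosely bound subunit, fell most, by 0.49 on the log2 scale, from 2262 and 2132 to 1541 and 1578. EIF3M followed at -0.42. EIF3D, a subunit that can contact the mRNA cap, had 5823 and 5733 against 4637 and 4499 (log2 fold change -0.34, adjusted p = 8.81e-11). In all 4 of these genes each sh-IRF1 library was below each sh-NC library.

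The core subunits EIF3A and EIF3B had log2 fold changes of -0.21 and -0.28, EIF3H of -0.26, EIF3L of -0.21 and EIF3K of -0.17, all called lower. Of the exonic bases of EIF3L, 51.8% overlap other annotation. EIF3C, at -0.32, has a near-identical copy, EIF3CL, and its reads cannot be assigned with certainty. Its adjusted p of 0.0133 became 0.0632 with DESeq2, 0.0867 without sh-NC replicate 1 and 0.445 without sh-IRF1 replicate 2, where the log2 fold change was -0.13. EIF3I, at -0.11 (adjusted p = 0.0161), likewise missed the threshold without sh-NC replicate 1 (0.0772), without sh-IRF1 replicate 1 (0.055) and without sh-IRF1 replicate 2 (0.142).

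EIF3F, which encodes a subunit with an MPN fold, did not pass the test at -0.072 (95% interval -0.15 to 0.0087). EIF3G, for an RNA-binding subunit, went the other way. It lies on chromosome 19 from 10115014 to 10119918 and had 2667 and 2618 normalized counts in sh-NC and 3195 and 3003 in sh-IRF1 (log2 fold change 0.23, standard error 0.0451, adjusted p = 4.08e-05 from limma). EIF3G and EIF3I bind each other at the edge of the complex, and the ratio of their normalized counts rose from 0.587 and 0.588 to 0.760 and 0.729. Per length, the eIF3 transcripts spanned a wide range in sh-NC, from 10.2 RPKM for EIF3C and 31.1 for EIF3F to 336 for EIF3K and 455 for EIF3E. The reads of EIF3C cannot be assigned with certainty. The canonical transcripts used for length run from 772 bases for EIF3K to 6920 for EIF3F. These values therefore do not show whether the transcripts are equal in number, as the subunits are in the complex.

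The start of several of these genes carries a run of pyrimidines. Terminal oligopyrimidine (TOP) transcripts begin with a C followed by further pyrimidines, and their translation is known to depend on mTORC1. RefSeq starts (GRCh38.p14) were found for 37 of the 46 genes. EIF2S2, EIF3A, EIF3E, EIF3G, EIF3H, EIF3L, EIF4EBP1, EEF1D and PABPC1 had no entry. At 1 or more of their starts, 11 of the 37 genes had a C and at least 4 pyrimidines after it, 29.7%, against 4.07% of the 35116 starts of the table, of which a gene can have several (the 37 genes have 52). The 11 are EEF1A1, EEF1B2, EEF2, EIF2A, EIF2S3, EIF3D, EIF3F, EIF3K, EIF3M, EIF4A2 and EIF4B. Their median log2 fold change was -0.18, equal to that of all 45 genes to the second decimal, with 8 called lower and 1 higher. This pattern was looked for after the values had been seen. The windows below run from 15 bases before the start to the 15th base of the transcript, and are shown for 2 genes that fell, EEF2 and EIF3D, for EIF2S3, which did not pass the test, and for EIF4A2, which rose. Capitals mark the pyrimidine run.
EEF2, chr19:3985449-3985478, minus strand: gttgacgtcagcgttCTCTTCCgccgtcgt
EIF3D, chr22:36529152-36529181, minus strand: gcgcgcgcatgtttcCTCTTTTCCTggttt
EIF2S3, chrX:24054941-24054970, plus strand: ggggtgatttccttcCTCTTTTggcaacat
EIF4A2, chr3:186783562-186783591, plus strand: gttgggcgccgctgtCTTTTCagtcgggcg

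The cap-binding and scanning factors were divided. Of 10 genes, 4 fell, 1 rose and 5 did not pass, with a median log2 fold change of -0.056. The share of 40.0% lower rests on few genes and stands beside 21.9% lower of all genes tested. It is near the 38.6% of those with a mean normalized count of at least 1000, a level that not all 10 genes reach. The 1 gene that rose stands beside 20.3% higher of all genes tested. EIF4E, which binds the mRNA cap and is often limiting for initiation, had normalized counts of 1408 and 1480 in sh-NC and of 1002 and 1063 in sh-IRF1 (log2 fold change -0.48, standard error 0.064, adjusted p = 1.69e-08 from limma). The reads of its named pseudogenes came to 10.8% of its own. Its scaffold partner EIF4G1 had 18293 and 18174 against 17675 and 18172, a value of -0.025 with a 95% interval of -0.077 to 0.027. The ratio of EIF4E to EIF4G1 was 0.0770 and 0.0814 in sh-NC and 0.0567 and 0.0585 in sh-IRF1. The related scaffolds EIF4G2, at -0.013 (95% interval -0.067 to 0.040), and EIF4G3, at 0.051 (95% interval -0.041 to 0.14), did not pass either. Scaled by total reads, EIF4G1 and EIF4G2 had positive values of 0.020 and 0.031, and EIF4G2 also turned positive under upper-quartile scaling (0.0027).

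EIF4H, which assists the helicase, went from 10956 and 10703 to 9458 and 9630 normalized counts, a log2 fold change of -0.18 (adjusted p = 1.73e-06). EIF4B, a helper of the same step, was at -0.086 with an adjusted p of 0.0203, which became 0.0703 without sh-NC replicate 1, 0.26 without sh-IRF1 replicate 2 and 0.280 when scaled by total reads. The helicase gene EIF4A2 had 2507 and 2600 against 2673 and 2874, higher in both knockdown libraries (log2 fold change 0.12, adjusted p = 0.0379). That call was lost without sh-NC replicate 1 (0.174), without sh-IRF1 replicate 2 (0.426) and with DESeq2 (0.0877), and 17.9% of its exonic bases are shared. EIF4A1, the main helicase gene of many cells, had only 220 and 227 against 214 and 189 normalized counts. Of its exonic bases 47.4% overlap other annotation, and its named pseudogenes had 52.8% of its own reads, so no level can be given for it with certainty. EIF4E2, a weaker cap-binding relative of EIF4E, had a log2 fold change of 0.0036 with overlapping groups.

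PABPC1, which binds the poly(A) tail and contacts eIF4G, was among the most abundant transcripts at 2861 RPKM in sh-NC. It had 145333 and 151183 normalized counts in sh-NC and 121217 and 118724 in sh-IRF1 (log2 fold change -0.31, standard error 0.0172, adjusted p = 5.94e-20 from limma), with no overlap between the groups.

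The E-box CACGTG, a palindrome that MYC and MAX can bind, was searched from 250 bases before to 50 bases after the RefSeq starts on both strands. It was found for 7 of the 37 genes (18.9%), EIF2B3, EIF3F, EIF3K, EIF4B, EIF4E, EIF4G1 and EIF4H, against 7.26% of all promoters in the table. For each motif here a gene was counted if any of its starts had a match, whereas the share of promoters counts every start. The 37 genes have 52 starts, so the 2 shares are not in the same unit. Of these 7 genes, 4 were called lower and 0 higher, with a median log2 fold change of -0.16, against 29 lower of all 45 genes and a median of -0.18. The letters AANNGAAA, found in IRF binding sites, occurred for 8 of the 37 genes (21.6%) against 22.8% of all promoters. Those 8 were EEF1B2, EIF2A, EIF3C, EIF3F, EIF3K, EIF4G3, EIF6 and ETF1. Of them 5 were called lower and 0 higher, with a median of -0.24, beside 29 lower and 3 higher of all 45 genes. The reads of EEF1B2, EIF3C and EIF6 could not be assigned with certainty. The CRE-like letters TGATGNAA, found in ATF4 binding sites, occurred for 0 of the 37 genes against 3.62% of all promoters. A match describes only letters in this window. The 2 E-boxes upstream of EIF4E, which fell, and the 2 upstream of EIF4G1, which did not pass the test, are shown side by side with the motif in capitals.
EIF4E, chr4:98929341-98929370, minus strand: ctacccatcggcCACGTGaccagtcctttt
EIF4E, chr4:98929188-98929217, minus strand: ggacatatccgtCACGTGgccagaagctgg
EIF4G1, chr3:184314450-184314479, plus strand: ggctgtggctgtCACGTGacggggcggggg
EIF4G1, chr3:184314527-184314556, plus strand: ccctgcgccggtCACGTGggggcgccggct

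MYC went from a mean of 14380 to one of 7364 normalized counts (log2 fold change -0.97). Its part in the lower levels of translation factors was not tested.

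The 2 inhibitors of eIF4E moved in opposite directions. The proteins 4E-BP1 and 4E-BP2 occupy the site on eIF4E that eIF4G needs, until mTORC1 phosphorylates them. EIF4EBP1 had 6462 and 5972 normalized counts in sh-NC and 4738 and 4645 in sh-IRF1, so that both knockdown libraries were lower (log2 fold change -0.41, standard error 0.0377, adjusted p = 1.28e-12 from limma). EIF4EBP2, on chromosome 10 from 70404145 to 70428618, had 5192 and 5263 against 6632 and 6493 and was higher in both (log2 fold change 0.33, standard error 0.0349, adjusted p = 6.35e-11). The ratio of EIF4EBP1 to EIF4EBP2 within a library was 1.24 and 1.13 in sh-NC and 0.714 and 0.715 in sh-IRF1, which is 60.1% of the control ratio. Per length EIF4EBP1 stood far above EIF4EBP2 in both groups, at 415 ± 23.8 against 38.5 ± 0.313 RPKM in sh-NC and at 323 against 49.9 in sh-IRF1. The canonical transcripts used for length have 827 bases for EIF4EBP1 and 7491 for EIF4EBP2. This gap per length therefore rests mostly on those lengths and is not seen in the normalized counts.

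Of the genes that act when the ribosomal subunits join, EIF5 had the largest fall of all 45 genes. It encodes the protein that triggers GTP hydrolysis by eIF2 at the start codon, and it lies on chromosome 14 from 103333544 to 103345025. Its normalized counts were 5327 and 5451 in sh-NC and 3515 and 3706 in sh-IRF1, which left 67.0% of the control level (log2 fold change -0.58, standard error 0.0389, adjusted p = 3.70e-17 from limma). Refits that each dropped 1 library gave values between -0.62 and -0.54. EIF5B, the GTPase that joins the large subunit, fell less, to -0.23 (adjusted p = 4.70e-06), and 10.8% of its exonic bases are shared. EIF6, which keeps free large subunits apart from small ones, was at -0.12 and did not pass (adjusted p = 0.194, 95% interval -0.27 to 0.029), but passed at -0.21 without sh-NC replicate 2 (adjusted p = 0.0434).

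Of the 5 elongation genes tested, 3 fell and 0 rose. The share of 60.0% lower rests on few genes. It stands beside 21.9% lower of all genes tested and 38.6% of those with a mean normalized count of at least 1000. EEF1A1, which carries aminoacyl-tRNA to the ribosome, was the most abundant transcript of the set, at 3363 RPKM in sh-NC. It had 213182 and 214660 normalized counts in sh-NC and 189835 and 187030 in sh-IRF1 (log2 fold change -0.18, standard error 0.0146, adjusted p = 1.16e-14 from limma). It has 15 named pseudogenes in the table, whose reads came to 1.33% of its own. EEF2, the translocase, went from 105058 and 104924 to 87389 and 87034 (log2 fold change -0.27, standard error 0.017, adjusted p = 4.71e-18). These 2 abundant transcripts differed little between replicates, and their groups stood apart.

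The exchange factors of eEF1A did not change alike. EEF1B2, for eEF1B alpha, had 7573 and 7017 normalized counts against 5797 and 5662 (log2 fold change -0.35, adjusted p = 2.51e-11), with 16.4% of its exonic bases shared. EEF1D, for the delta subunit of the same complex, had 2010 and 2006 against 2227 and 2083, at 0.10, and did not pass (adjusted p = 0.107, 95% interval -0.0013 to 0.20). When scaled by total reads EEF1D was called higher, at 0.15 with an adjusted p of 0.0166, and 34.0% of its exonic bases are shared. EIF5A, whose hypusine-bearing protein helps the ribosome past slow peptide bonds, had 8262 and 8014 against 8362 and 8095, with overlapping groups and a log2 fold change of 0.016 (95% interval -0.049 to 0.081). ETF1, the release factor eRF1, on chromosome 5 from 138506095 to 138543236, went from 5175 and 5067 to 3753 and 3962 (log2 fold change -0.41, standard error 0.0389, adjusted p = 2.46e-12).

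Genes of the same pathway outside the 46 were counted from lists written with earlier results of these data known. Of 28 further cytosolic factors tested, 16 fell and 1 rose, with a median log2 fold change of -0.22. That is 57.1% lower and 3.57% higher, beside 21.9% and 20.3% of all genes tested. TPT1, a TOP transcript long used to study translational control, had the smallest p, at -0.54 (adjusted p = 5.57e-21), with 11.1% of its exonic bases shared, and EEFSEC, the selenocysteine elongation factor, was the one that rose, at 0.22 (adjusted p = 0.0458, 14.3% shared), a call lost with DESeq2 (adjusted p = 0.113). Among 24 regulators of translation factors, 9 fell and 6 rose. These shares, 37.5% and 25.0%, stand beside 21.9% and 20.3% of all genes tested. They are near the 38.6% and 28.1% of genes with a mean normalized count of at least 1000, a level that not all regulators reach. PDCD4, an inhibitor of the eIF4A helicase, led the lowered ones, from 2399 and 2461 to 1070 and 1089 normalized counts (log2 fold change -1.17, standard error 0.0556, adjusted p = 1.21e-22, 29.5% of exonic bases shared). PPP1R15A, which guides a phosphatase to eIF2 alpha, led the raised ones, from 1270 and 1183 to 1775 and 1672 (log2 fold change 0.49, adjusted p = 2.35e-09).

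The other gene families of the translation machinery give a scale for these values. Of 79 cytosolic ribosomal protein genes, 60 fell and 2 rose (75.9% and 2.53%), with a median log2 fold change of -0.19. RPL19 had the smallest p of those that fell (-0.65) and RPL15 of those that rose (0.30). Of 20 cytosolic aminoacyl-tRNA synthetase genes, 15 fell (75.0%) and 0 rose, with a median of -0.36, and TARS1 had the smallest p (-0.62). Of all genes tested, 21.9% were lower and 20.3% higher. Among those with a mean normalized count of at least 1000, 38.6% were lower and 28.1% higher. The difference between these families and the translation factors was not tested.

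**Figure D4:**
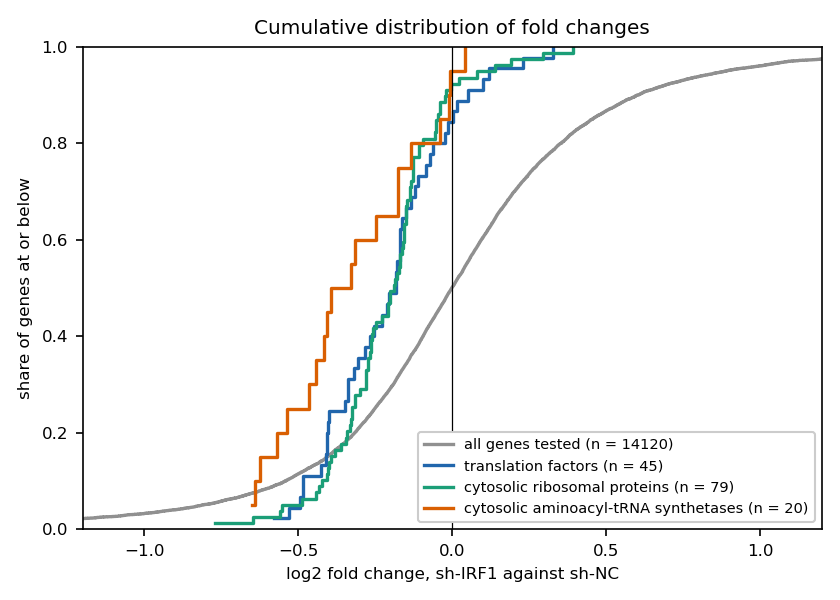
Share of genes (vertical axis) with a log2 fold change at or below the value on the horizontal axis, for all 14120 genes tested, the 45 translation factors, 79 cytosolic ribosomal proteins and 20 cytosolic aminoacyl-tRNA synthetases. The medians are -0.0019, -0.18, -0.19 and -0.36, and the most extreme of all genes lie beyond the axis.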

How the data were processed

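Values in the deposited table are a normalized signal, made by the authors as read counts over a size factor that is fixed within a library. Every value was a whole multiple of what 1 read is worth in its library (100% within 0.001 of a read), so reads were recovered for all 23622 genes. The submitters' processing notes name HISAT2 (2.0.5) and hg38; the counting tool, annotation and use of strand are not given in the sources used here. Symbols matched 23456 identifiers. Libraries were made with a TruSeq kit per the labels.

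Fold changes were fitted with limma (3.58.1, R 4.3.3, trend and robust shrinkage) on log2(value + 1), a scale that understates changes of low genes, over the 14120 genes that reached 10 in 2 or more libraries, with Benjamini-Hochberg adjustment. edgeR (4.0.16) and DESeq2 (1.42.0) were run on recovered reads. The tests were also run on simulated counts, in which a small part of the genes changed by more than any member did. That run does not show how reliable the calls of smaller changes are. Positions, exonic overlaps and canonical transcript lengths came from GENCODE 44, and promoters from RefSeq (GRCh38.p14). Reads were called uncertain where over 10% of exonic bases are shared with another gene, where pseudogene reads exceed 10% of a gene's own, or for EIF3C.

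The members and lists were chosen with earlier results of these data known. All members are named. Counts in every library are given for those beyond a log2 fold change of 0.5, for the smallest p in each direction of each role, and for EIF3D and EIF4H. EIF1, EIF2S1, EIF2S3, EIF2B2, EIF3J, EIF4A1, EIF4E, EIF4G1, EIF5A, EEF1A1, EEF1B2 and EEF1D were given in the same detail after their values were seen, as were the ratios and the second background. Mitochondrial factors are given at the end.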

Additional observations from a re-analysis of the deposited data

How the results depend on the processing

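The number of translation factors called lower (29) was between 24 and 30 with each library left out, 26 when scaled by total reads and 28 with DESeq2, and the number called higher (3) was between 2 and 4 in all alternatives. The number lower beyond a log2 fold change of -0.5 (2) was 1 when scaled by total reads and between 3 and 4 with a library left out. The median (-0.18) was -0.14 when scaled by total reads, where the median of all genes was 0.042, and between -0.25 and -0.16 with a library left out. The difference in the share of reads was -0.332 percentage points without EEF1A1 and -0.420 without genes of uncertain reads. With the replicate number as a block the counts were the same, 29 and 3, at a median of -0.18, and no call of a member changed. The numbers do not pair the samples beyond their name, as deviations of same-numbered libraries correlated at -0.015. Of 675 refits of single genes, 18 lost a call and 2 gained one. Another 11 changed sign, all of genes not called: EIF4G1 (0.020) and EIF4G2 (0.031) under total-read scaling, EIF4G2 (0.0027) under upper-quartile scaling, and with a library left out EIF2B2 (-0.33 to 0.064), EIF4E2 (-0.025 to 0.033), EIF4G2 (-0.052 to 0.026) and EIF5A (-0.0073 to 0.039). The causes were not tested. Small changes such as that of EIF3I lie near what 2 libraries a group can show.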

Other observations

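Mitochondria translate their own transcripts with a separate set of factors, encoded in the nucleus. Of 9 such genes tested, 3 fell, 1 rose and 5 did not pass, with a median log2 fold change of -0.15. The shares of 33.3% lower and 11.1% higher rest on few genes and stand beside 21.9% and 20.3% of all genes tested. TUFM, the mitochondrial counterpart of EEF1A1, had 6507 and 6439 normalized counts in sh-NC and 5742 and 5717 in sh-IRF1 (log2 fold change -0.18, adjusted p = 3.52e-05 from limma). MTRF1, a mitochondrial release factor, had 161 and 162 against 206 and 225 (log2 fold change 0.41, adjusted p = 0.0298), and this call was lost with DESeq2 (adjusted p = 0.0825). For both genes the groups did not overlap.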
